A study of Mus musculus with 6 samples.

Results

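Nnmt, which encodes nicotinamide N-methyltransferase, and 8 other genes that make, salvage or divert precursors of NAD were examined in mouse liver. The 9 genes were matched by symbol among the 45777 genes listed, and all 9 were among the 17274 genes that could be tested. They were chosen from earlier results of this same contrast, around Nnmt, which ranked 1 among protein-coding genes in the test between the genotypes. Their differences between the groups are therefore given as a description, and no p-value is printed for them. At the boundary of that choice, Nnmt had a log2 fold change of 3.55 (standard error 0.26) and the gene at rank 2, Rpl29, had one of 3.37 (standard error 0.31).

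The study asked how loss of ferroportin, the iron exporter encoded by Slc40a1, alters the liver during diet-induced obesity. Liver RNA from 3 littermate control mice (LT, Fpn flox/flox) and 3 knockout mice (Fpn-LKO, Alb-Cre; Fpn flox/flox) was sequenced, with 1 library per mouse. All 6 mice were male, of the C57BL/6 strain, and fed a high-fat diet (HFD) with 60 kcal% fat from 8 weeks of age. Both groups carried the floxed allele on both chromosomes, an allele made in 129S mice and backcrossed to C57BL/6J. The Alb-Cre transgene, whose albumin promoter is active in hepatocytes, was present in the Fpn-LKO group only. The paper describes the deletion as specific to hepatocytes.

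The total count per library lay between 43086184 and 47778683. Values are CPM, a gene's reads relative to all reads of its library after TMM scaling, and are listed in the order of replicates 1 to 3. Fold changes are Fpn-LKO over LT, and errors of means are SD with n = 3. Slc40a1 itself measured 154, 180 and 126 CPM in LT against 143, 143 and 176 CPM in Fpn-LKO. It was therefore not reduced where the labels name a knockout, and each direction rests on those labels. The count covers the whole gene in whole liver, and reads by exon or cell type were not examined. The paper reports ferroportin loss in isolated hepatocytes and by immunostaining, and more hepatic iron and ferritin in HFD-fed Fpn-LKO mice. Tfrc, the transferrin receptor, was lower in every Fpn-LKO library, at 13.1 to 18.9 CPM against 28.0 to 52.6 CPM. In the edgeR fit over all genes it did not pass adjustment (log2 fold change -1.24, standard error 0.25, adjusted p = 0.570). Tfrc was picked after its values were seen, and no list of iron-responsive genes was examined. Whether its level reflects iron in these livers, or bears on the labels, was not tested. All 10 hepatocyte markers had reads, and their summed CPM ranged from 59500 to 73190 in LT and from 64130 to 71420 in Fpn-LKO. Most of that sum was Alb, at 38070 to 48160 CPM over the 6 libraries. The methods describe libraries of rRNA-depleted total RNA, whereas the labels name a stranded mRNA kit.

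NAD is a redox carrier and is also cut by sirtuins, PARPs and CD38, which release nicotinamide. The liver makes NAD from tryptophan through quinolinate, from nicotinate by the Preiss-Handler route, and from nicotinamide by salvage. Nnmt stands outside these routes and removes nicotinamide by methylating it with S-adenosylmethionine, and aldehyde oxidases convert the methylated product to pyridones for excretion. Nnmt is best known from liver and fat, where it links nicotinamide clearance with the use of methyl groups.

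Nnmt (gene 18113, chromosome 9 of GRCm38 from 48538002 to 48607655) has 4 annotated transcripts. It measured 4.16, 2.63 and 4.04 CPM in LT against 30.4, 50.6 and 46.3 CPM in Fpn-LKO. Every Fpn-LKO library was above every LT library, and the lowest Fpn-LKO value belonged to replicate 1. The means were 3.61 ± 0.848 CPM in LT and 42.4 ± 10.6 CPM in Fpn-LKO, so the ratio of means was 11.8 and the fitted log2 fold change 3.55 (standard error 0.26). Behind these values stood 207, 114 and 167 reads in LT and 1450, 2361 and 2149 reads in Fpn-LKO, so that counting error is minor next to the differences among mice. The difference of mean log2 values was 3.55 on CPM, 3.66 on TPM and 3.58 on FPKM, so the size was close in the 3 units.

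**Figure D1:**
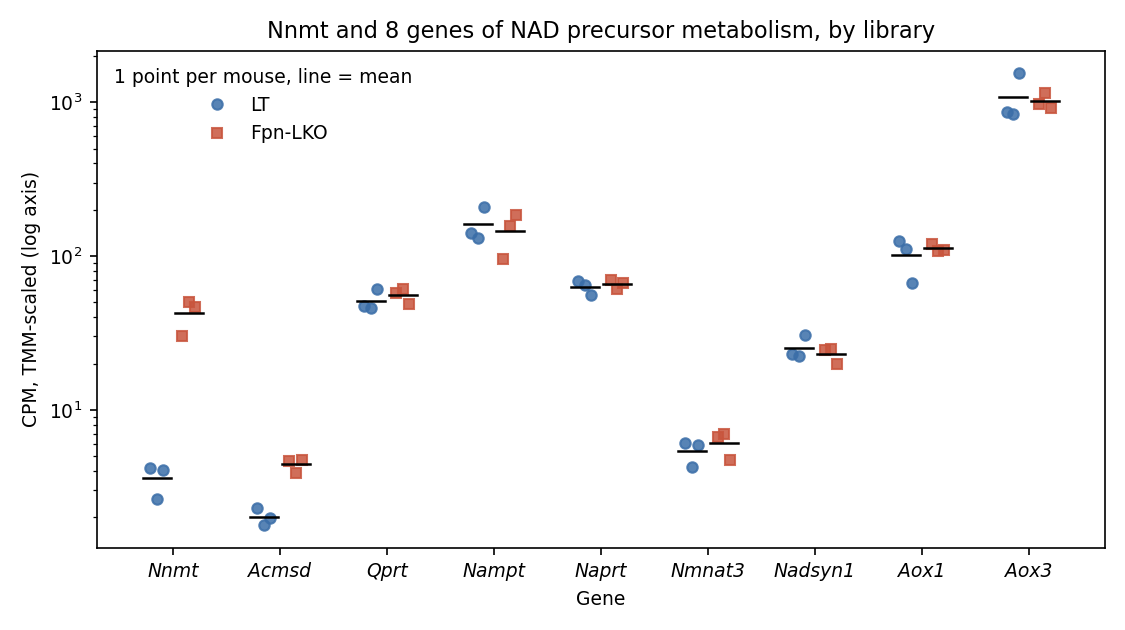
Values of the 9 genes in each library, in CPM on a log axis, with circles for LT, squares for Fpn-LKO and a line at each group mean (n = 3 each). Nnmt and Acmsd are the genes whose groups do not overlap, with Nnmt at 2.63 to 4.16 CPM in LT and 30.4 to 50.6 CPM in Fpn-LKO.

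Acmsd (gene 266645, chromosome 1 from 127729413 to 127767564) encodes the decarboxylase that takes the tryptophan intermediate aminocarboxymuconate semialdehyde away from quinolinate, and so away from NAD. It measured 2.29, 1.78 and 1.98 CPM in LT against 4.65, 3.90 and 4.70 CPM in Fpn-LKO. Its groups did not overlap either, and the lowest Fpn-LKO library had more than the highest LT library. The means were 2.02 ± 0.258 and 4.42 ± 0.450 CPM, with a ratio of 2.19 and a fitted log2 fold change of 1.13 (standard error 0.22). The gene was low in both groups, with 77 to 114 reads in LT and 182 to 222 in Fpn-LKO.

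RefSeq promoters of GRCm38.p6, 250 bases before to 50 after the start, are described for 6 of the 9 genes. The promoter of Nampt held 36 CG dinucleotides and 76.3% GC, against medians of 7 and 52.7% over all 32851 promoters. Nadsyn1 followed with 27 and 65.7%, whereas Aox1 and Qprt had 7 each, Aox3 had 10 and Nmnat3 had 13. The Nmnat3 window (98296320 to 98296619) lies within the gene, whose span starts at 98287433, so the start used for Nmnat3 is an internal one. Exact letters of 6 motifs were searched on both strands. TGACNNNGC, the core of the antioxidant response element, was in Qprt, with its first base 76 before the start, and on the minus strand in Nmnat3, where it lay within the transcribed bases, and 12.4% of all promoters held it. TTCNNNGAA, a STAT site, was in Qprt, 19 bases before the start, and in 8.3% of all promoters. The other 4 were in none of the 6. The forkhead letters TGTTTAC were in 3.65% of all promoters. The HNF1 letters GTTAAT were in 7.1%, and the E-box CACGTG in 7.15%. The TATA box TATAAA was in 13.6%. No pair of these motifs overlapped in a member, and a match is a description of letters and not of binding.

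Qprt (gene 67375, chromosome 7 from 127107770 to 127122029) encodes the phosphoribosyltransferase that turns quinolinate into nicotinate mononucleotide, the branch that competes with Acmsd. It measured 47.1, 46.0 and 60.8 CPM in LT against 57.4, 60.9 and 48.9 CPM in Fpn-LKO, and these ranges overlapped almost completely. Its log2 fold change was 0.12 (standard error 0.15).

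Nampt (gene 59027, chromosome 12 from 32820335 to 32853369) encodes the rate-limiting enzyme of nicotinamide salvage and uses the same substrate as Nnmt. It measured 142, 132 and 208 CPM in LT against 95.0, 156 and 186 CPM in Fpn-LKO, with a log2 fold change of -0.14 (standard error 0.27). The groups overlapped, and Fpn-LKO replicate 1, the lowest of the Fpn-LKO libraries in Nnmt, was also the lowest of all 6 in Nampt.

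The remaining enzymes of NAD synthesis among the members overlapped as well. Naprt (gene 223646, chromosome 15 from 75890963 to 75894481), which opens the Preiss-Handler route from nicotinate, measured 69.2, 65.1 and 55.9 CPM in LT against 69.6, 61.1 and 66.9 CPM in Fpn-LKO (log2 fold change 0.055, standard error 0.12). Nmnat3 (gene 74080, chromosome 9 from 98287433 to 98420533), an adenylyltransferase placed in mitochondria that joins the mononucleotide to AMP, measured 6.13, 4.27 and 5.87 CPM in LT against 6.63, 7.004 and 4.72 CPM in Fpn-LKO (log2 fold change 0.17, standard error 0.23). Nadsyn1 (gene 78914, chromosome 7 from 143795589 to 143822862), the synthetase that amidates the last intermediate of the quinolinate and nicotinate routes, measured 23.1, 22.3 and 30.8 CPM in LT against 24.6, 25.0 and 19.9 CPM in Fpn-LKO (log2 fold change -0.13, standard error 0.16). In Nadsyn1 the highest and the lowest of the 6 libraries were replicate 3 of LT and replicate 3 of Fpn-LKO.

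The aldehyde oxidases act on the product of Nnmt. Aox1 (gene 11761, chromosome 1 from 58029809 to 58106410) and Aox3 (gene 71724, from 58113135 to 58202221 on the same chromosome) are tandem relatives with 6724 bases between them, and how the counting divided reads that match both was not given in the sources used here. Aox1 measured 126, 111 and 66.3 CPM in LT against 120, 108 and 110 CPM in Fpn-LKO (log2 fold change 0.16, standard error 0.22). Aox3 measured 858, 841 and 1541 CPM in LT against 971, 1152 and 920 CPM in Fpn-LKO (log2 fold change -0.091, standard error 0.26). LT replicate 3 was the lowest of the 6 libraries in Aox1 and the highest in Aox3, and its ratio of Aox3 to Aox1 in TPM was 21.0, against 6.15 to 9.79 in the other 5.

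LT replicate 3 thus held the extreme value of Nampt, Naprt, Nadsyn1, Aox1 and Aox3, and the signs of these 5 small differences depended on it. Without it the log2 fold changes became 0.091 for Nampt, -0.027 for Naprt, 0.033 for Nadsyn1, -0.072 for Aox1 and 0.26 for Aox3, so none of the 5 has a stable direction. Those of Nnmt and Acmsd were 3.64 and 1.12 without it. The summed CPM of 6 cholangiocyte markers was 84.4 in this library against 12.8 to 29.9 in the other 5, nearly all of it from Spp1 (83.1 CPM), while Krt19 was at 0 in it. What this Spp1 level reflects, and its part in the 5 differences, were not tested.

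**Figure D2:**
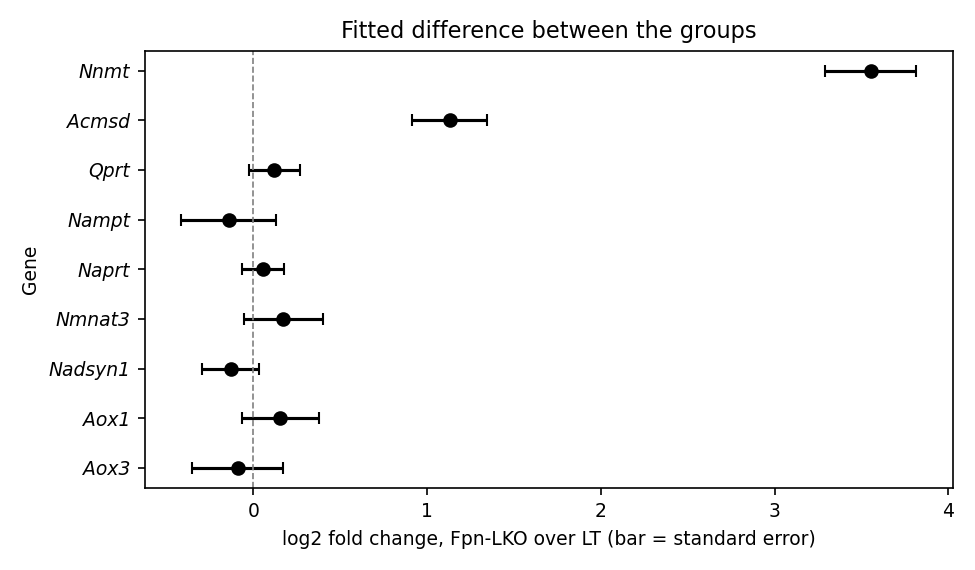
Fitted log2 fold changes of the 9 genes, Fpn-LKO over LT, with bars of 1 standard error from edgeR's quasi-likelihood fit. Nnmt stands at 3.55 and Acmsd at 1.13, and the other 7 lie between -0.14 and 0.17.

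Of the 9 genes, 1 had an adjusted p under 0.05 (Nnmt) and 2 an unadjusted p under 0.05 (Nnmt and Acmsd), where 0.0232% and 4.8% of all genes tested did. The same 2 did not overlap between the groups, both higher in Fpn-LKO, where 10.6% of all genes did not overlap. The log2 fold change was positive in 6 members and negative in 3, with a median of 0.12 beside -0.004 over all genes tested. The call of Nnmt was lost in 5 of the 14 alternatives, with the replicate block and without LT replicate 1, LT replicate 2, LT replicate 3 or Fpn-LKO replicate 2, and Acmsd was called after adjustment in 2 of the 14, DESeq2 and exactTest. Since this contrast chose the genes, nothing is read from these counts.

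Levels per transcript length were compared by TPM. In LT the order of the means was Aox3 (282 ± 77.7 TPM), Qprt (53.9 ± 5.26), Nampt (44.2 ± 8.15), Naprt (43.2 ± 8.71), Aox1 (30.5 ± 12.1), Nadsyn1 (12.6 ± 1.30), Nnmt (4.42 ± 1.28), Nmnat3 (3.26 ± 0.854) and Acmsd (1.11 ± 0.243). Neighbours from Qprt to Aox1, and Nnmt and Nmnat3, had overlapping libraries, so those ranks are not separated. In Fpn-LKO Nnmt stood at rank 3 with 56.6 ± 19.0 TPM, between Qprt (63.2 ± 11.5) and Naprt (47.2 ± 1.06) and overlapping both, whereas it was at rank 7 in LT. The other 8 kept their order in Fpn-LKO, except that Naprt was above Nampt (43.7 ± 15.5 TPM), which overlapped with it in both groups.

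Ratios within a library do not depend on its scaling. In LT replicates 1 to 3, Nnmt reached 0.129, 0.0853 and 0.0855 of the TPM of Nampt, the other enzyme that uses nicotinamide. In Fpn-LKO the ratio was 1.40, 1.43 and 1.11, so that the Nnmt level was above that of Nampt in each of the 3 livers and below it in each LT liver. The ratio of Acmsd to Qprt, the competing exits of the tryptophan route, was 0.0252, 0.0201 and 0.0169 in LT and 0.0420, 0.0332 and 0.0499 in Fpn-LKO. Qprt was thus the far more abundant transcript in all 6 livers, and the ratio had a mean of 0.0207 ± 0.0042 in LT and 0.0417 ± 0.00835 in Fpn-LKO. These are ratios of transcripts, and the use of either branch was not measured.

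**Figure D3:**
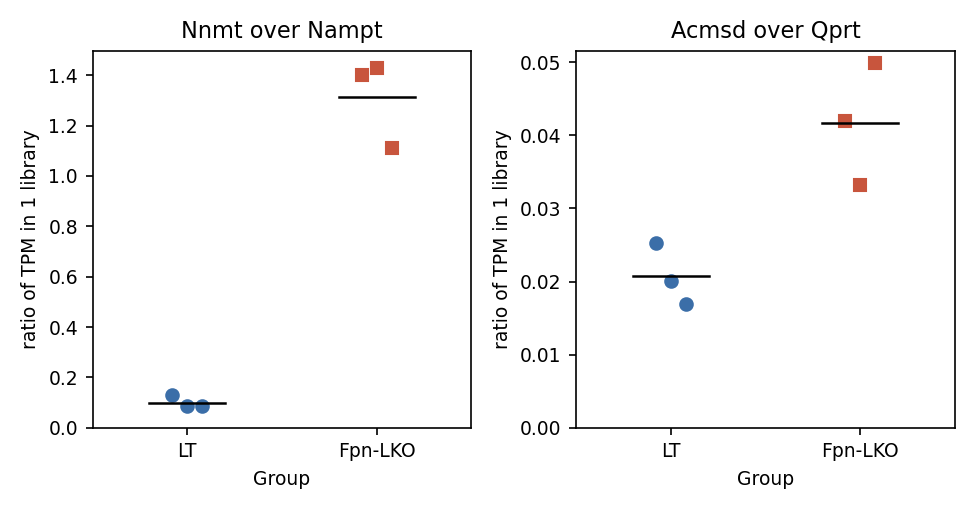
Ratio of TPM within each library for Nnmt over Nampt and for Acmsd over Qprt, with points for mice and lines for group means (n = 3 each, axes from 0). Nnmt over Nampt is 0.0853 to 0.129 in LT and 1.11 to 1.43 in Fpn-LKO.

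No gene listed overlaps Nnmt, and none of its nearest neighbours was called. Among the 5 nearest genes tested on each side, between 48450291 and 49486275 on chromosome 9, 0 of 10 had an unadjusted p under 0.05 in the edgeR fit and 0 of 10 had groups that did not overlap, beside 4.8% and 10.6% of all genes. Their median log2 fold change was 0.0074, with 5 positive. On the left, Gm5617, Rbm7, Rexo2, Gm39334 and Gm5616 had log2 fold changes of 0.092, 0.17, 0.21, 0.34 and 0.080. On the right, Zbtb16, a zinc finger transcription factor, had -0.29, LOC115487167 had -0.066, Usp28 had -0.22, Zw10 had -0.081 and Ttc12 had -0.60. The largest of these, in Ttc12, had a standard error of 0.66 and rested on 9 to 38 reads per library.

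**Figure D4:**
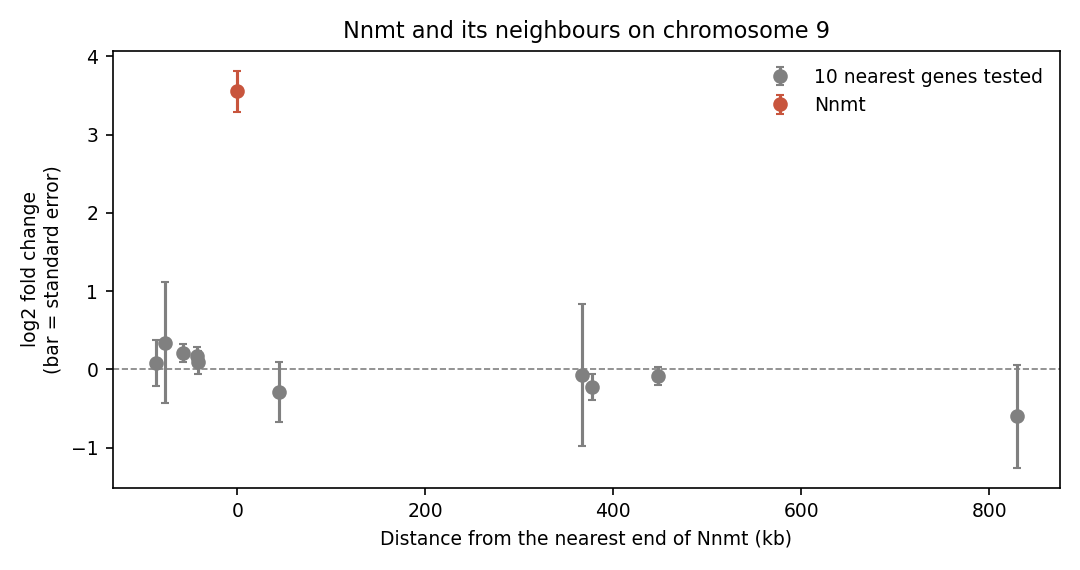
Log2 fold changes, Fpn-LKO over LT, of Nnmt and of the 10 nearest genes tested, against the distance in kb from the nearest end of Nnmt, with bars of 1 standard error. The neighbours lie between -0.60 and 0.34, and Nnmt at 3.55.

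The genes most like Nnmt over the 6 libraries were sought among 11280 protein-coding genes with a mean of at least 1 CPM, by the Euclidean distance between log2 CPM profiles scaled to mean 0 and SD 1. The nearest 5 were Rprd1a (distance 0.372), Cenpm (0.481), the chaperone gene Hspa8 (0.504), Fundc1 (0.507) and Pdia3 (0.507), a disulfide isomerase of the endoplasmic reticulum. The 3 nearest to the mirror image were Tlr12 (0.329), Nudt6 (0.353) and Lmbr1 (0.362). Scaling hides size, since Hspa8 differed by 0.26 and Pdia3 by 0.61 on the log2 scale where Nnmt differed by 3.55. Acmsd stood at rank 13 (distance 0.598), and the other members ranked from 2577 (Qprt) to 8167 (Nadsyn1). Over 6 libraries this distance mostly follows the separation of the groups, the contrast by which Nnmt was selected.

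Other genes of the pathway were taken from 7 lists by function, with 75 genes outside the 9, of which 65 were tested. By the quasi-likelihood test of edgeR, adjusted for all genes tested, 0 of 65 passed, with adjusted p-values from 0.401 to 0.997. Adjusted p-values of single genes are from this fit unless another tool is named. At an unadjusted p under 0.05 there were 6 higher and 2 lower in Fpn-LKO, 12.3% of the 65 in all, where 2.62% and 2.19% of all genes were higher and lower. The groups did not overlap in 8 higher and 3 lower genes, 16.9% of the 65, against 5.25% and 5.34% of all genes. The log2 fold change was positive in 40 and negative in 25, with a median of 0.11 beside -0.004 over all genes. The 8 genes with an unadjusted p under 0.05 became 4 without LT replicate 2, 3 without Fpn-LKO replicate 1 and 4 without Fpn-LKO replicate 2. With DESeq2 and with exactTest, 1 gene passed after adjustment, Slc25a51, and 5 and 4 had an unadjusted p under 0.05.

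In NAD synthesis and transport, 2 of the 7 genes tested had an unadjusted p under 0.05, both higher in Fpn-LKO. Slc25a51, the carrier that brings NAD into mitochondria, measured 22.1, 28.5 and 25.6 CPM in LT against 42.2, 57.5 and 45.8 CPM in Fpn-LKO. The groups did not overlap, and the log2 fold change was 0.93 (standard error 0.16, adjusted p = 0.401 with the quasi-likelihood fit of edgeR, 0.000424 by DESeq2 and 0.00193 by exactTest, with 0.000424 to 0.863 over the alternatives). Pnp, a purine nucleoside phosphorylase that also splits nicotinamide riboside, measured 58.9, 41.6 and 73.5 CPM in LT against 71.4, 84.7 and 110 CPM in Fpn-LKO, with overlap through LT replicate 3 (log2 fold change 0.62 with a standard error of 0.24, adjusted p = 0.982). Nmnat1, the nuclear counterpart of Nmnat3, had 10.1 to 11.4 CPM in LT and 11.7 to 14.2 CPM in Fpn-LKO without overlap (log2 fold change 0.27, adjusted p = 0.982). The kinases that make NADP differed little, with log2 fold changes of 0.14 for Nadk and -0.14 for mitochondrial Nadk2. Nmrk2 was at 0 in all 6 libraries.

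In the tryptophan route to quinolinate, 1 of the 9 genes tested had an unadjusted p under 0.05 and none was free of overlap. Kynu, which encodes kynureninase, measured 94.4, 72.2 and 67.6 CPM in LT against 149, 112 and 91.4 CPM in Fpn-LKO, where the lowest Fpn-LKO library fell just under the highest LT library (log2 fold change 0.59 with a standard error of 0.21, adjusted p = 0.982). The most abundant per length were the heme enzyme Tdo2, which opens the route (log2 fold change 0.23, standard error 0.18), and Haao, an iron-dependent dioxygenase just before the Acmsd branch (0.14, standard error 0.12), and both overlapped. Of the alternative entry enzymes, Ido1 was at 0 in all libraries, and Ido2 ranged from 20.8 to 45.9 CPM over the 6 with overlapping groups (log2 fold change 0.27, standard error 0.29).

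NAD consumers, the largest list, had 0 of 17 tested genes with an unadjusted p under 0.05 by edgeR and a median log2 fold change of -0.039. Sirt2, a cytosolic deacetylase, was the single gene without overlap, at 11.6 to 12.4 CPM in LT and 12.9 to 14.4 CPM in Fpn-LKO (log2 fold change 0.22, adjusted p = 0.982). The mitochondrial deacetylase Sirt3 had a log2 fold change of -0.087 and Parp9 of 0.11, both with overlap. Among 6 breakdown enzymes, Enpp1 and Enpp3, neighbouring ectoenzymes that cleave nucleotides outside cells, each had an unadjusted p under 0.05 and were lower without overlap. Enpp1 measured 38.5, 34.8 and 39.9 CPM in LT against 27.7, 30.1 and 34.5 CPM in Fpn-LKO (log2 fold change -0.29 with a standard error of 0.12, adjusted p = 0.982). Enpp3 measured 36.4, 31.6 and 28.0 CPM in LT against 26.9, 26.1 and 25.1 CPM in Fpn-LKO (log2 fold change -0.30 with a standard error of 0.12, adjusted p = 0.982). The NADH hydrolase Nudt12 overlapped (log2 fold change 0.11).

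The methyl donor of Nnmt comes from the methionine cycle. In this list, 1 of 16 tested genes had an unadjusted p under 0.05, 2 were higher and 1 lower without overlap, and the median log2 fold change was 0.11. Mat2a, a methionine adenosyltransferase, measured 72.5, 53.1 and 58.8 CPM in LT against 79.3, 72.5 and 78.2 CPM in Fpn-LKO, and LT replicate 1 lay only just under the lowest Fpn-LKO library (log2 fold change 0.32 with a standard error of 0.14, adjusted p = 0.982). Ahcy, which clears the by-product of methyl transfer, measured 1150, 1127 and 1255 CPM in LT against 1387, 1379 and 1335 CPM in Fpn-LKO (log2 fold change 0.22, adjusted p = 0.982), and As3mt, an arsenite methyltransferase, was lower in every Fpn-LKO library (log2 fold change -0.27, adjusted p = 0.982). The most abundant genes, Mat1a and Bhmt, overlapped, with log2 fold changes of 0.088 and 0.18, and Mat1a ranged from 2442 to 5544 CPM within LT alone.

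Enzymes of the aldehyde oxidase family and its molybdenum cofactor had 1 of 7 tested genes with an unadjusted p under 0.05. Xdh, the xanthine oxidoreductase that is a relative of Aox1 and Aox3, measured 90.5, 103 and 81.2 CPM in LT against 155, 104 and 140 CPM in Fpn-LKO, and Fpn-LKO replicate 2 was barely above LT replicate 2 (log2 fold change 0.54 with a standard error of 0.17, adjusted p = 0.982). Mocs3, a cofactor synthesis gene, was higher in every Fpn-LKO library at 3.10 to 3.69 CPM against 2.49 to 2.76 (log2 fold change 0.41, adjusted p = 0.982), and Mocs2 and Suox overlapped, at -0.029 and 0.25. Aox2 and Aox4 were at 0 in all libraries.

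**Figure D5:**
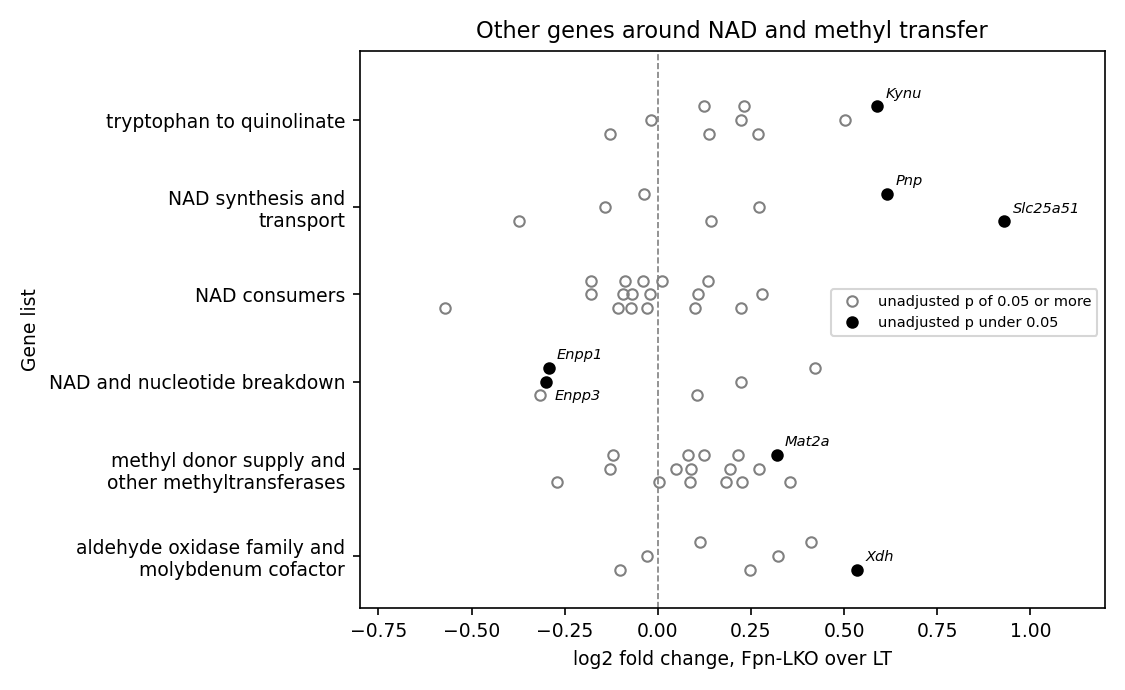
Log2 fold changes, Fpn-LKO over LT, of the 62 genes tested in 6 of the lists, 1 point per gene, with filled points and names for the 7 with an unadjusted p under 0.05 in the edgeR fit. Slc25a51 lies farthest from 0 at 0.93, and none passed after adjustment.

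Nnmt is expressed in more than 1 cell type, and in whole liver a change in the number of cells of a type and a change in RNA per cell cannot be told apart. The defining adipocyte genes Adipoq, Lep, Plin1 and Retn were at 0 in all 6 libraries, and the summed CPM of the 8 adipocyte markers ranged from 7.06 to 17.4 in LT and from 6.45 to 14.7 in Fpn-LKO. The sum thus came from 4 genes, led by Cidec (mean 8.33 CPM over all libraries) and Adrb3 (2.24 CPM). Of these 4, 3 were positive and Adrb3 was negative (log2 fold change -2.10, standard error 0.60), and all 4 overlapped. The summed CPM of 10 stellate cell and fibroblast markers ranged from 436 to 507 in LT and from 472 to 510 in Fpn-LKO. Of these 10, 9 were positive in log2 fold change, Col1a1 (1.06, standard error 0.51) and Pdgfrb (0.47) without overlap. Col1a1 rested on 12 to 90 reads per library, and its highest LT library (0.846 CPM) lay just under its lowest Fpn-LKO library (0.857 CPM). The 9 pericentral hepatocyte markers summed to 10860 to 13180 CPM in LT and 10670 to 13010 in Fpn-LKO, with 5 of the 9 positive. Most of that sum was Cyp2e1, at 8456 to 10860 CPM over the 6 libraries. The 8 periportal markers summed to 3007 to 3048 and 2747 to 3902 CPM, and all 8 were positive, Gls2 (log2 fold change 1.15) and Ctsc (0.85) without overlap. Over all 17274 genes tested, 8529 were positive and 10.6% did not overlap. Endothelial cells were the single list of 11 whose sums did not overlap, at 327 to 398 CPM in LT and 315 to 323 in Fpn-LKO, although each of the 8 markers overlapped on its own and 3 of the 8 were positive (Pecam1, Lyve1 and Tek). The sums overlapped for Kupffer cells and macrophages (287 to 387 CPM in LT, 240 to 510 in Fpn-LKO), blood (351 to 941 and 474 to 1243, with 5 of 5 positive), lymphocytes and neutrophils (1.21 to 2.43 and 1.46 to 2.57) and pancreas (11.1 to 28.5 and 12.6 to 16.5). In the remaining lists, the macrophage marker Gpnmb (log2 fold change 1.98, at most 0.881 CPM) and the hepatocyte marker Hnf4a (0.32) were higher without overlap. Cela2a of the pancreas list was lower without overlap (-2.30). The part of the periportal, stellate, macrophage, endothelial and blood markers in the Nnmt difference was not tested.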

How the data were processed

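RNA-seq was made from 3 LT and 3 Fpn-LKO livers, grouped by the sample labels, all in 1 batch per the labels. The submitters' processing notes name bcl2fastq 2.20.0, FastQC 0.11.7, HISAT2 2.1.0, Bowtie2 2.3.4.1, StringTie 2.1.3b and mm10. The authors deposited read counts per RefSeq gene, which StringTie derives from coverage, without normalization. They also deposited FPKM and TPM, scaled to transcript length and library size. The filter follows the study's methods, which apply TMM after a log2 step and name exactTest, whereas TMM was applied here to the counts themselves.

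Genes at 0 reads in 2 or more libraries were dropped, and counts were compared with edgeR 4.0.16 in R 4.3.3 (quasi-likelihood test, not robust, Benjamini-Hochberg threshold 0.05). Standard errors were taken from the F statistic. Alternatives were RLE size factors, DESeq2 1.42.0, exactTest, 2 other filters on low counts, the replicate number as a block, limma 3.58.1 on log2(TPM + 1) and log2(TPM + 0.1), and leaving out each mouse. Scripts were tested on simulated data. Coordinates and promoters are from RefSeq GRCm38, in which 99.8% of the gene identifiers were found. The common biological coefficient of variation was 0.275. Nothing in the labels ties the libraries beyond 1 mouse each, so p-values measure the spread between these mice, and 3 against 3 cannot give an exact permutation p under 0.1.

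The members, the 7 pathway lists and the 11 marker lists were chosen with earlier results of these data known. Named were all members, list genes with an unadjusted p under 0.05 or without overlap (at most 6 per list), the 2 most abundant by TPM in each list, Slc40a1, the 5 nearest genes on each side of Nnmt, and the 5 genes most like it and 3 like its mirror image. Rpl29, Tfrc, Ido2, the genes at 0 in all libraries and single markers were named beyond this rule, after their values were seen. Genes of 1 pathway list, organic cation transporters, enter the counts but are not reported here by name. The promoter of Acmsd is not reported here. Protein sequences were not analysed here.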

Additional observations from a re-analysis of the deposited data

How the results depend on the processing

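Over 14 alternatives the log2 fold change of Nnmt stayed between 3.38 and 3.75 and that of Acmsd between 0.76 and 1.23, lowest on log2(TPM + 1). The signs of 5 of the 9 genes changed, all 5 without LT replicate 3, and also Nampt without Fpn-LKO replicate 1 and Aox3 on both TPM scales. The 4 genes called over all genes became 72 with DESeq2, 63 with exactTest, 7 on log2(TPM + 0.1) and 0 with the replicate block, and 0 to 6 when 1 library was left out (0 without LT replicate 2, 1 each without LT replicate 1, LT replicate 3 and Fpn-LKO replicate 2, and 6 without Fpn-LKO replicate 3). The 8 pathway genes with an unadjusted p under 0.05 became 5 with DESeq2, 4 with exactTest, 5 among all genes with at least 1 read, 5 on log2(TPM + 1), 4 on log2(TPM + 0.1) and 3 to 8 when 1 library was left out. The 0 pathway genes with an adjusted p under 0.05 became 1 with DESeq2 and 1 with exactTest. The cause of these changes was not tested.

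The deviations of same-numbered libraries correlated at 0.0957, -0.0083 and 0.0329, and those of the other pairs at -0.0741 to 0.0463. The value of 0.0957 was the highest of all pairs. With so few libraries these values cannot show whether the replicate numbers pair the mice. With the replicate block, 9 pathway genes had an unadjusted p under 0.05 and the log2 fold change of Nnmt was 3.54. Acmsd, Nmnat3 and Nnmt in LT rested on the fewest reads of the 9.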
